A study of Mus musculus with 8 samples.

Results

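Noncoding RNAs that work in the nucleus and nucleolus were followed in bulk RNA-seq counts of MC38 tumors. The 8 members were listed by name, with earlier results of these data known. The list holds the 45S ribosomal RNA precursor (Rn45s) and the long nuclear RNAs Malat1, Neat1 and Kcnq1ot1. It also holds the snoRNA host genes Gas5 and Snhg1, and the catalytic RNAs Rmrp and Rpph1. The members are 8 of the 24421 genes in the table of raw counts, and each passed the filter on low counts. The MC38 line comes from a colon adenocarcinoma of a mouse and was grown here in female B6 Kaede mice aged 9 weeks, whose own cells carry a fluorescent protein that turns from green to red in violet light. In the photoconverted group, 4 tumors of about 5 mm in diameter received violet light (405 nm, 3 min) on day 10 after injection of 250000 cells, and the control group was 4 tumors that received no light. All tumors were collected 5 h after the exposure. Each library holds the RNA of a whole tumor, so fewer cells of a type and less RNA per cell cannot be told apart, and the labels name no batch.

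Total RNA libraries hold RNA species that a selection for poly(A) tails would largely lose. Rn45s is the long transcript of RNA polymerase I that nucleoli cut into the mature ribosomal RNAs, guided by small nucleolar RNAs (snoRNAs). Its counts can thus come from the precursor or from mature ribosomal RNA, and these cannot be told apart here. Malat1 is retained in nuclear speckles, Neat1 is the scaffold of paraspeckles, and Kcnq1ot1 silences neighboring genes of its imprinted domain. Gas5 and Snhg1 are spliced transcripts whose introns release snoRNAs and whose spliced products are short lived. Rmrp is the RNA of RNase MRP, which cuts the ribosomal RNA precursor, and Rpph1 is the RNA of RNase P, which trims the leader from precursors of transfer RNAs.

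Total counts ranged from 12576615 to 35844417 per tumor. Values by tumor follow the replicate numbers 1 to 4 throughout. Rn45s took 4.14%, 9.65%, 4.60% and 21.9% of all counts in the photoconverted group, and 2.70%, 35.7%, 4.70% and 23.2% in the control group. The 3 tumors above 10%, photoconverted tumor 4 and control tumors 2 and 4, also had the 3 lowest totals. Defining markers of carcinoma cells (Krt8, Krt18, Epcam, Cdh1 and Krt19) summed to only 2.14 to 5.37 CPM (counts scaled to a common library size with TMM factors), whereas fibroblast markers summed to 3022 to 12335 CPM, with control tumor 2 highest. The 5 leukocyte markers summed to 143 to 244 CPM in the 3 tumors above 10%. They summed to 279 to 434 CPM in the other 5, without overlap. The sum of adipocyte markers was also lower in those 3 tumors without overlap, while the sums for the other cell types examined overlapped. Of all genes tested, 21.0% were likewise lower in all 3 of those tumors than in the other 5.

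Rmrp and Rpph1 are related ribozyme RNAs, and their sequences are shown because Rpph1 rose and Rmrp fell with the Rn45s share of the library. The annotation (GENCODE M21, GRCm38, which is mm10) places Rmrp at chr4:43492788-43493058 on the minus strand and Rpph1 at chr14:50807449-50807767 on the minus strand, and calls both ribozymes. The capitals mark the longest run of bases that both share, of 9 bases, at positions 183 to 191 of Rmrp and 17 to 25 of Rpph1, counted from the 5′ end. Rmrp is shown whole (271 bases), and the first 300 of the 319 bases of Rpph1 are shown.
Rmrp: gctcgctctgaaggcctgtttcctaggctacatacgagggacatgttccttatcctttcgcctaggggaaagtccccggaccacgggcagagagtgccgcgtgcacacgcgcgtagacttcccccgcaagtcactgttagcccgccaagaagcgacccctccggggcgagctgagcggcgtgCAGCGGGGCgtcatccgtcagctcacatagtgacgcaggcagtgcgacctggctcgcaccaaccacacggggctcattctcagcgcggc
Rpph1: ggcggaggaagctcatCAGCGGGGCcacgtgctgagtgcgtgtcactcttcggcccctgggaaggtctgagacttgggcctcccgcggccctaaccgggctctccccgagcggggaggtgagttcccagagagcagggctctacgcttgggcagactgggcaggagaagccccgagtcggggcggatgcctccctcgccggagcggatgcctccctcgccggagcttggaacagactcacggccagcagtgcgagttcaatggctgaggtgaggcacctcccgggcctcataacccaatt
Over a global alignment the RNAs were identical at 49.7% of positions. Whether this identity or the run of 9 bases exceeds what unrelated sequences would share was not tested. The Rpph1-like genes Rprl1, Rprl2 and Rprl3 (70.1% to 76.6% identical to Rpph1) had raw counts of 0 to 1 in every tumor. Ccnb1ip1 overlaps Rpph1 on the same strand and had 0 to 1 counts, whereas Ccdc107, opposite to Rmrp, had 145 to 511.

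The members spanned several orders of magnitude. Per kilobase of annotated exons, mean levels over the 8 tumors were 24352 ± 8377 CPM (SD, n = 8) for Rpph1 and 12573 ± 3033 CPM (SD, n = 8) for Rmrp. Malat1 (342 ± 63.5 CPM per kilobase) and Gas5 (239 ± 43.0) came next, then Snhg1 (60.3 ± 20.2), Neat1 (15.6 ± 4.06) and Kcnq1ot1 (0.593 ± 0.0884). In this order, neighbors other than Rpph1 and Rmrp, and Malat1 and Gas5, had ranges over the tumors that did not overlap. Per kilobase, Rpph1 spanned 14942 to 36463 CPM and Rmrp 7675 to 16705 CPM, and Malat1 spanned 247 to 421 CPM and Gas5 169 to 293 CPM, so each of these pairs overlapped. The value for Neat1 divides by the exons of its long form (20771 bases), and a short form makes it uncertain. Rn45s was not annotated in the tables used here, so its level per kilobase is not given. Raw counts per tumor ran from 104122 to 250787 for Rpph1, 19431 to 180947 for Rmrp, 23341 to 107634 for Malat1 and 794868 to 4531182 for Rn45s. The members with the fewest counts were Snhg1 (202 to 3121) and Kcnq1ot1 (550 to 2540). In the deposited normalized table, Rpph1 spanned 108019 to 263290, Rmrp 46764 to 102079 and Snhg1 486 to 1761.

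**Figure D1:**
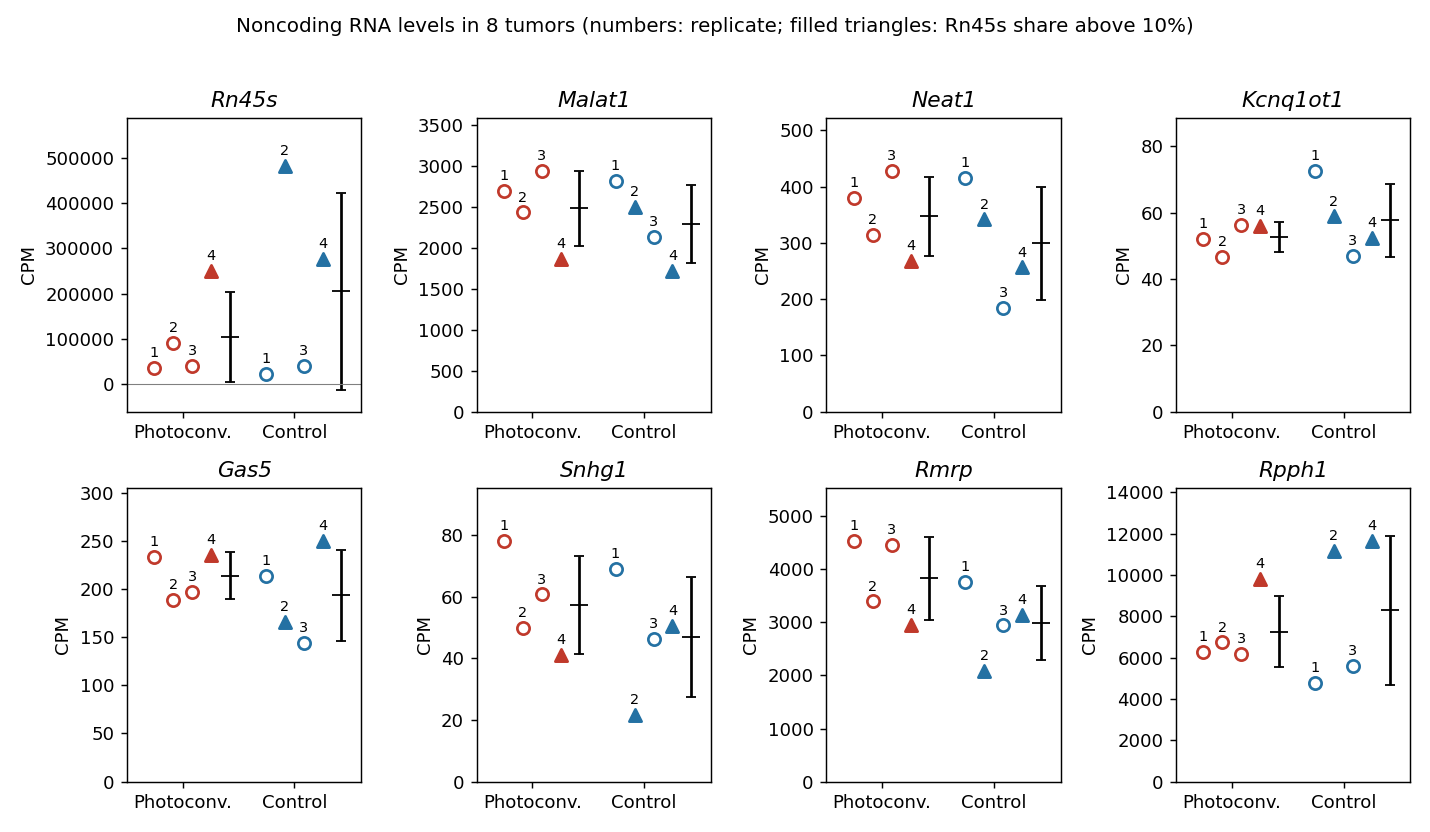
CPM (linear axes) of each of the 8 noncoding RNAs in every tumor, by light group. Points are tumors with their replicate number, filled triangles are the 3 tumors with an Rn45s share above 10%, and black marks are the group mean ± SD (n = 4). For every gene the 2 groups overlap, and for Rpph1 the 3 triangles lie above all circles.

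The study exposed tumors to light to label their cells, and the first comparison was whether light moved these RNAs. None of them was called. Among 14468 genes tested with edgeR's quasi-likelihood test, 0% had an adjusted p under 0.05, and 322 genes had an unadjusted p under 0.05, of which 0 were members. On the same tumors, DESeq2 called 19 genes and limma 0, with 0 members among them. No member had light groups that did not overlap, where 1.33% of all genes tested did.

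Rn45s had 37084, 91855, 41166 and 249895 CPM in photoconverted tumors and 22695, 481110, 40211 and 276566 CPM in control tumors. High and low tumors occurred in both groups. The log2 fold change of photoconverted over control tumors was -0.97 (SE 0.98; edgeR, adjusted p = 0.999). It was -0.11 without control tumor 2, -1.86 without photoconverted tumor 4 and -0.40 with the replicate block, none of them called. As a share of counts, Rn45s was 10.1% ± 8.25 (SD, n = 4) in photoconverted and 16.6% ± 15.8 (SD, n = 4) in control tumors, a difference smaller than the spread within either group (p = 0.543 in a two-sided exact permutation test, whose smallest possible p for 4 against 4 is 0.0286). Within tumors of the same replicate number, the photoconverted tumor had the higher share in 1 of 4 pairs (p = 0.5 in a two-sided exact permutation of signs, whose smallest possible p is 0.125).

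Malat1, annotated at chr19:5795690-5802672 on the minus strand, had 2693, 2434, 2938 and 1868 CPM in photoconverted tumors and 2821, 2498, 2133 and 1722 CPM in control tumors. The lowest tumor of each group was tumor 4. Neat1, at chr19:5824708-5845478 on the same strand, had 379, 314, 428 and 268 CPM in photoconverted tumors and 415, 342, 184 and 257 CPM in control tumors. Control tumor 3 was lowest for Neat1 but not for Malat1. Kcnq1ot1, at chr7:143203458-143296549 on the minus strand and antisense to Kcnq1, had 52.1, 46.6, 56.2 and 56.1 CPM in photoconverted tumors and 72.5, 58.9, 47.0 and 52.4 CPM in control tumors. It varied least of the 8 members, 1.56-fold between the highest and the lowest tumor. The log2 fold changes of photoconverted over control tumors were 0.11 (SE 0.21) for Malat1, 0.22 (SE 0.25) for Neat1 and -0.13 (SE 0.15) for Kcnq1ot1 (edgeR, adjusted p = 0.999 for each).

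Gas5, at chr1:161034422-161038539 on the plus strand, had 233, 189, 197 and 235 CPM in photoconverted tumors and 214, 166, 144 and 249 CPM in control tumors. Snhg1, at chr19:8723475-8726443 on the plus strand, had 78.1, 49.9, 60.8 and 41.1 CPM in photoconverted tumors and 69.0, 21.6, 46.3 and 50.5 CPM in control tumors. Control tumor 2, with the highest Rn45s share, had the least Snhg1 but not the least Gas5. Rmrp had 4527, 3393, 4457 and 2956 CPM in photoconverted tumors and 3757, 2080, 2942 and 3146 CPM in control tumors. Rpph1 had 6274, 6735, 6178 and 9807 CPM in photoconverted tumors and 4767, 11145, 5609 and 11632 CPM in control tumors. The tumors that were high for Rpph1 were thus the 3 with the most Rn45s, in both groups. The log2 fold changes by light were 0.14 (SE 0.18) for Gas5, 0.29 (SE 0.32) for Snhg1, 0.36 (SE 0.23) for Rmrp and -0.19 (SE 0.33) for Rpph1 (edgeR, adjusted p = 0.999 for each). With the replicate number as a block, Rmrp had an unadjusted p of 0.037 and an adjusted p of 0.808 in edgeR.

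Ratios of 2 RNAs inside 1 library do not depend on how libraries are scaled, and none of 3 ratios differed between the light groups by more than the spread. The log2 ratio of Malat1 to Neat1 counts was 2.84 ± 0.08 (SD, n = 4) in photoconverted and 2.98 ± 0.38 (SD, n = 4) in control tumors (two-sided exact permutation test, p = 0.771). Control tumor 3 stood apart at 3.54, with the others between 2.75 and 2.95. The log2 ratio of Gas5 to Snhg1 was 1.93 ± 0.42 (SD, n = 4) in photoconverted and 2.13 ± 0.63 (SD, n = 4) in control tumors (two-sided exact permutation test, p = 0.657). The log2 ratio of Rmrp to Rpph1 was -0.92 ± 0.60 (SD, n = 4) in photoconverted and -1.40 ± 0.93 (SD, n = 4) in control tumors (two-sided exact permutation test, p = 0.429). With adjustment over these 3 ratios and the Rn45s share, each of the 4 exact permutation p-values became 0.771. By tumor, the log2 ratio of Rmrp to Rpph1 was -1.73, -2.42 and -1.89 in photoconverted tumor 4 and control tumors 2 and 4, and between -0.99 and -0.34 in the other 5.

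The second comparison set the members against the Rn45s share of their library, with the light group as a covariate. The share is a measured property of each library and not a treatment. As it doubled, Rpph1 rose by 26.4%, while Snhg1 fell by 18.3% and Rmrp fell by 11.8%. Of the other members, 4 did not pass the test. The slopes were 0.34 log2 units per doubling of the share (SE 0.05) for Rpph1, -0.29 (SE 0.08) for Snhg1 and -0.18 (SE 0.05) for Rmrp, with adjusted p-values of 0.000526, 0.0141 and 0.0216 in edgeR. These 3 of 7 members stood against a wide background, since 46.4% of the 14467 genes tested were called, 23.8% higher and 22.6% lower with the share. The 1 member that rose and the 2 that fell are too few to set the list apart from that background.

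The members that did not pass had slopes of -0.12 (SE 0.06) for Malat1, -0.09 (SE 0.09) for Neat1, -0.04 (SE 0.05) for Kcnq1ot1 and 0.03 (SE 0.07) for Gas5 (edgeR, adjusted p = 0.149, 0.448, 0.576 and 0.750). The 2 snoRNA hosts therefore took slopes on either side of the line for a call, and the long nuclear RNAs lay below 0 without a call. The difference between one member's slope and another's was not tested. Without control tumor 2 Malat1 was called lower (-0.22, adjusted p = 0.00271 in edgeR), and without control tumor 3 Neat1 was called lower (-0.16, adjusted p = 0.0477 in edgeR). Rpph1 was called with each tumor left out in turn, and without control tumor 1 it was the 1 member called. Snhg1 was then at an adjusted p of 0.0835 in edgeR. The call of Rmrp was lost without photoconverted tumor 1 (adjusted p = 0.0518), photoconverted tumor 4 (0.0817), control tumor 1 (0.0978) or control tumor 2 (0.0655) in edgeR, with slopes between -0.18 and -0.14.

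Besides Rn45s itself, Rpph1 was the 1 member whose 3 tumors above a share of 10% (9807 to 11632 CPM) all lay above the other 5 (4767 to 6735 CPM). This pattern was held by 23.4% of all genes tested, and the opposite order by 21.0%. Snhg1 (21.6 to 50.5 CPM against 46.3 to 78.1) and Rmrp (2080 to 3146 CPM against 2942 to 4527) overlapped between these tumors.

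The calls with the share were lost both with a replicate block and without those 3 tumors. With the replicate number as a block, which pairs tumors whose deviations correlated, 0 of 14467 genes were called in edgeR, with 2993 at an unadjusted p under 0.05. The labels state no pairing. Shares were low in both tumors 1 and 3 and high in both tumors 4, so the block takes up part of the share. The blocked slopes were 0.43 for Rpph1 (adjusted p = 0.112 in edgeR), -0.46 for Snhg1 (0.164) and -0.19 for Rmrp (0.459), and the slopes of Malat1, Neat1, Kcnq1ot1 and Gas5 changed sign. Among the 5 tumors with a share under 10%, 0 genes were called in edgeR, with 2260 at an unadjusted p under 0.05. The slopes there were 0.15 for Rpph1, -0.51 for Snhg1 and -0.38 for Rmrp (adjusted p = 0.562, 0.211 and 0.231 in edgeR). Both fits had few tumors for their terms, so 0 calls does not show that slopes were absent. Some cell type markers were also called with the share, beside 23.8% of all genes tested called higher and 22.6% lower. The leukocyte markers Cd68, Adgre1 and Ptprc were called lower (3 of 5), the muscle marker Mylpf lower (1 of 5) and the fibroblast marker Col1a1 higher (1 of 4). These lists are too small to set apart from that background. Col1a1 was at 4607 CPM in control tumor 2 and at most 1275 CPM in the other tumors. The part of cell makeup, depth or RNA quality in the members' slopes was not tested.

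**Figure D2:**
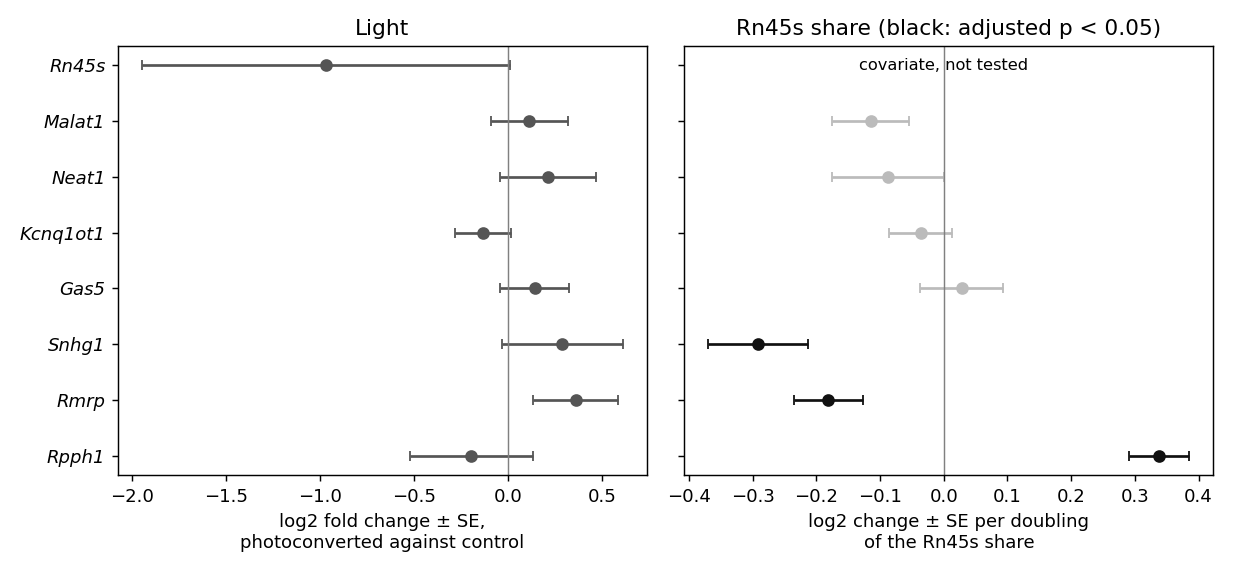
Left, log2 fold change of photoconverted over control tumors for each member (points) ± SE (bars); right, log2 change per doubling of the Rn45s share ± SE, with the 3 members past an adjusted p of 0.05 in black. The light estimates sit between -0.97 and 0.36, none of them called, and the share slopes run from -0.29 for Snhg1 to 0.34 for Rpph1.

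**Figure D3:**
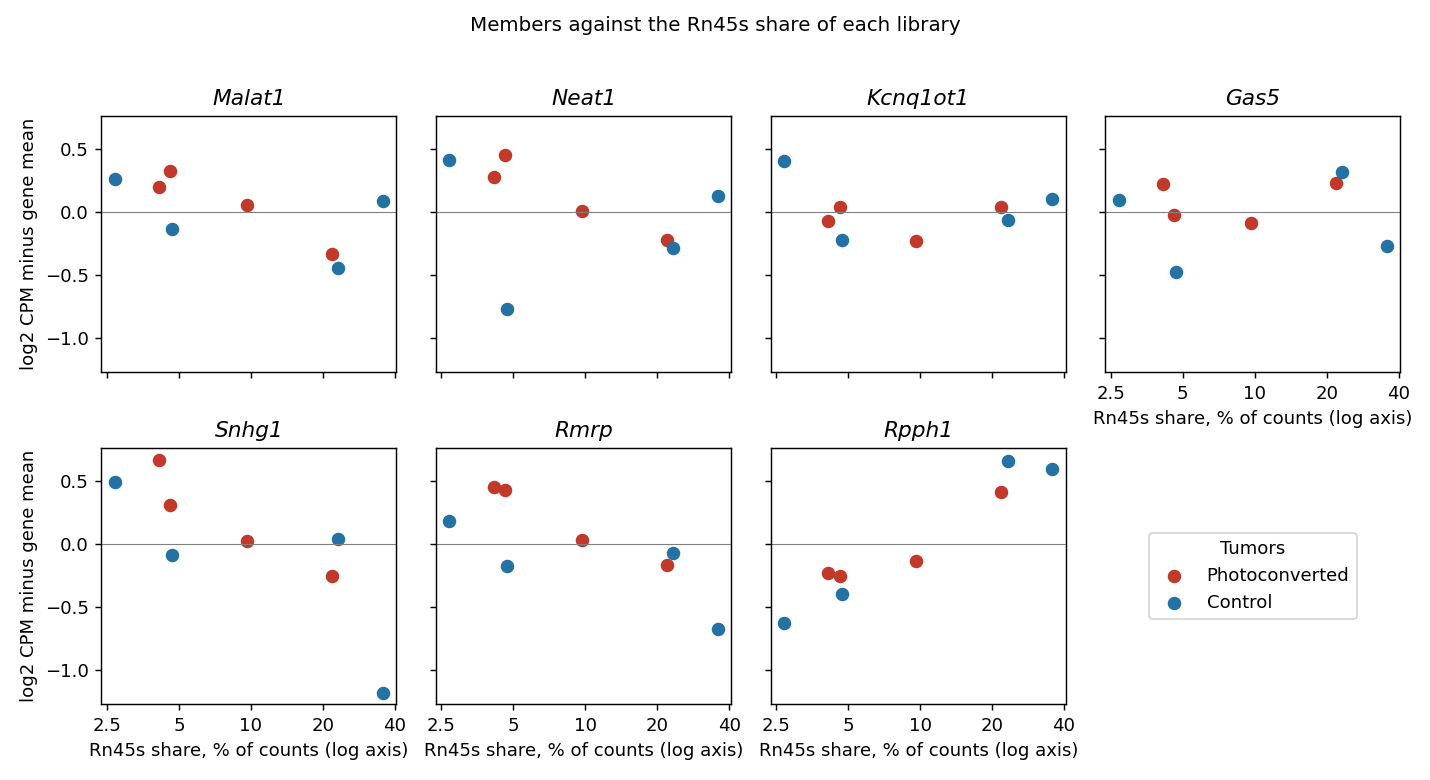
Log2 CPM of 7 members, centered on the mean of each gene over 8 tumors, against the Rn45s share of the library (log axis, percent of raw counts), with 1 point per tumor colored by light group. Rpph1 climbs with the share, Snhg1 and Rmrp are lowest in the tumor at 35.7%, and the other members show no single trend.

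Snhg1 and Gas5 each hold a snoRNA that was counted as a gene of its own. Snord22 lies inside Snhg1 (chr19:8725866-8725991) and Snord47 inside Gas5 (chr1:161038082-161038158), both on the strand of their host. Both belong to the box C/D class, which guides methylation or cutting of ribosomal RNA, and their sequences are shown because one rose and the other fell with the Rn45s share. The capitals mark letters that match the box motifs, GTGATGA or ATGATGA for the C box within the first 40 bases and CTGA for the D box within the last 30, on the strand of the RNA. In Snord22 only the D box letters matched.
Snord22: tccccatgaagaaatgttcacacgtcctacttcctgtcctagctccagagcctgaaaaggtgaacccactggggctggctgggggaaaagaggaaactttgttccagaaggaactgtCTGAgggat
Snord47: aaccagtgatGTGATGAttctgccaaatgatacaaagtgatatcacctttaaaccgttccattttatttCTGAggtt
Of 98 annotated box C/D transcripts, 69.4% held both letter matches.

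Snord22 had 32.2, 43.4, 23.7 and 75.4 CPM in photoconverted tumors and 19.1, 105, 27.2 and 115 CPM in control tumors. It was high in the 3 tumors with the most Rn45s, 2 of which were among the 3 lowest for its host. The raw ratio of Snord22 to Snhg1 was 0.413, 0.870, 0.390 and 1.84 in photoconverted tumors and 0.277, 4.85, 0.588 and 2.28 in control tumors. Snord22 thus had more counts than its whole host gene in 3 tumors and fewer in 5. Its slope was 0.70 (SE 0.06; edgeR, adjusted p = 9.21e-05), against -0.29 for Snhg1.

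Snord47 had 3.58, 1.29, 2.84 and 0.957 CPM in photoconverted tumors and 3.77, 0.642, 2.31 and 1.46 CPM in control tumors, from 6 to 143 raw counts. Its 3 values in the tumors above 10% overlapped with those of the other 5. The slope was -0.61 (SE 0.11; edgeR, adjusted p = 0.00166), against 0.03 for Gas5. How reads that overlap a host and its snoRNA were assigned is not given in the sources used here. The gene Zbtb37, opposite to the start of Gas5, had 77 to 457 raw counts, against at least 1552 for Gas5.

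Whether a snoRNA had a higher slope than its host varied among noncoding hosts. In all, 21 tested snoRNAs or scaRNAs (the small Cajal body RNAs that guide changes to spliceosomal RNAs) lay in 14 hosts annotated as noncoding, and the slope was above that of the host for 13 and below for 8. In the 8 hosts among the members and the list of host genes, it was above for 9 of 11, and in the other 6 hosts, found by annotation, it was above for 4 and below for 6. The list was matched by gene symbol, and 16 of its 20 symbols were in the count table. Listed hosts under another symbol would fall among the other 6, so these counts do not contrast kinds of host. One of those 6, Cct6a, encodes a chaperonin subunit although the annotation calls it a processed transcript. The host Snhg12 had a slope of 0.12 and Snora61 inside it 0.70. Scarna13 had a slope of 0.32 inside Snhg10 (-0.10), and Snora24 had 0.58 inside Snhg8 (0.31). Snord47 and Snord99 had slopes below those of Gas5 and Snhg12, and Snord1a (0.05), Snord1b (0.16) and Snord1c (-0.07) had slopes below that of their host 1810032O08Rik (0.22). Over all 89 tested snoRNAs inside a tested gene on the same strand, in 65 hosts, the slope of the snoRNA was above the host's in 56 and below in 33. The difference in slope within a pair was not tested, and snoRNAs of one host share that host.

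**Figure D4:**
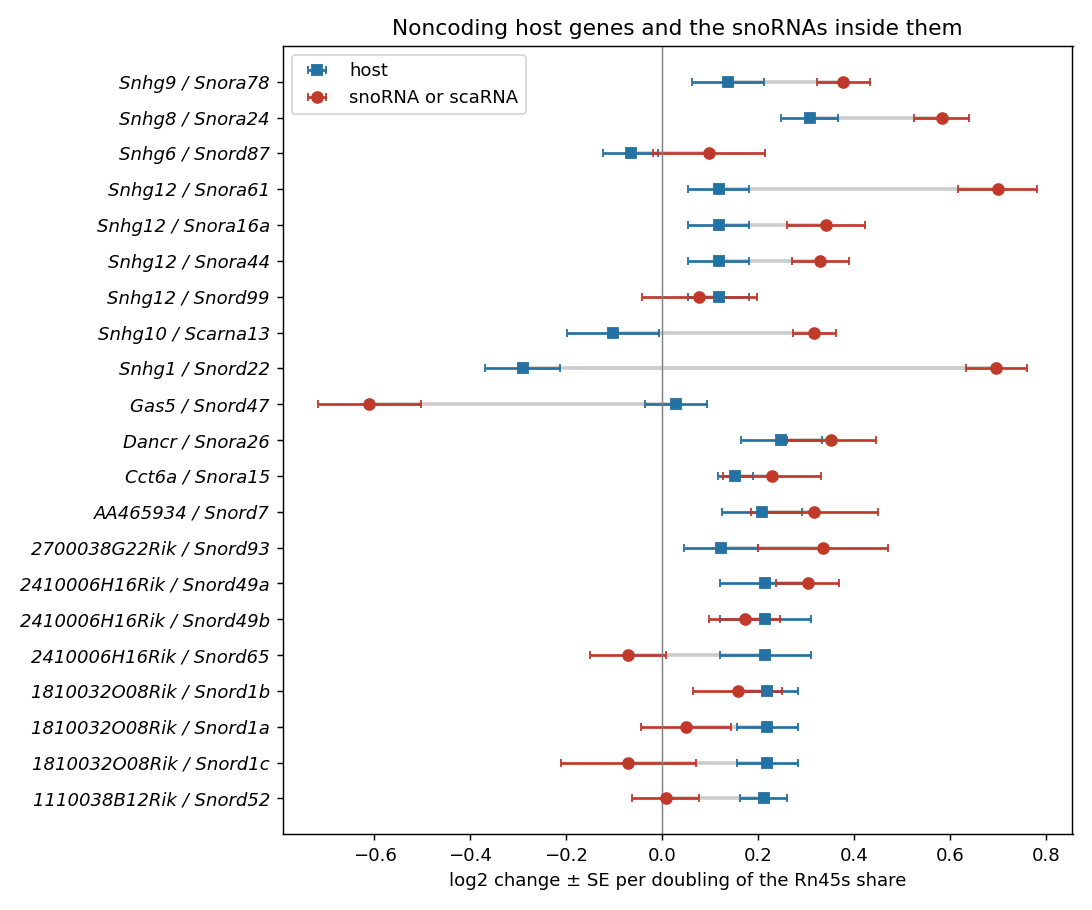
Log2 change per doubling of the Rn45s share ± SE for hosts annotated as noncoding (blue squares) and for the snoRNA or scaRNA inside each (red circles), 1 line per pair. In 13 of 21 pairs the circle lies to the right of the square, and the Snhg1 and Snord22 pair spans -0.29 to 0.70.

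In all, 103 genes named as snoRNAs or scaRNAs were tested. Snord116, Snord116l1 and Snord116l2 had the same value in every tumor, and each is counted here and among the box C/D RNAs below. With the share, 35 (34.0%) rose and 6 (5.83%) fell, where 23.8% of all genes tested rose and 22.6% fell, and the median slope was 0.16, where it was -0.01 over all genes tested. Snord17, a long box C/D RNA, had 82.5, 127, 87.4 and 293 CPM in photoconverted tumors and 63.8, 427, 85.1 and 255 CPM in control tumors. The 3 tumors with the most Rn45s were the 3 highest. Its slope was 0.73 (SE 0.04), beside 0.44 (SE 0.04) for Scarna2, and both had an adjusted p under 0.05 in edgeR.

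The classes were split after their values were seen. Of 33 box H/ACA RNAs, which guide the change of uridine to pseudouridine, 19 (57.6%) rose and 0 fell, with a median slope of 0.28. Of 62 box C/D RNAs, 14 (22.6%) rose and 4 (6.45%) fell, with a median slope of 0.10, and of 8 scaRNAs, 2 rose and 2 fell. The classes differ in length, with medians of 132 bases for H/ACA and 80 for C/D RNAs. Among C/D RNAs of at least 100 bases, 5 of 7 rose and 0 fell, and among the shorter ones 9 of 54 rose and 4 fell. Length and class were not separated by a test, and most C/D RNAs were low, with a median of 1.38 CPM against 3.84 CPM for H/ACA RNAs.

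Of 6 other structured RNAs tested, 3 rose with the share and 2 fell, beside 23.8% and 22.6% of all genes tested. These are too few to set the list apart from all genes tested. Terc, the template RNA of telomerase, had 28.6, 46.7, 30.1 and 89.5 CPM in photoconverted tumors and 22.8, 107, 26.9 and 111 CPM in control tumors, again with the 3 highest values in the 3 tumors above 10%. Terc had a slope of 0.68 (SE 0.05), the minor spliceosome RNA Rnu12 0.80 (SE 0.07) and the vault RNA Vaultrc5 0.62 (SE 0.13), each with an adjusted p under 0.05 in edgeR. Rnu11 and Rn4.5s fell, by 0.42 and 0.95 on the log2 scale per doubling of the share. Rn4.5s was low, from 0.137 to 8.00 CPM. With the replicate block the slopes were -0.05 for Rnu11 and 0.04 for Rn4.5s.

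Of 15 other noncoding snoRNA hosts listed by symbol, 5 (33.3%) rose and 3 (20%) fell, beside 23.8% and 22.6% of all genes tested, with a median slope of 0.12. Noncoding hosts under symbols outside the list are not in this count. Snhg20 (0.38), Snhg8 (0.31) and Snhg7 (0.25) were among those that rose, unlike Snhg1. Of 17 other long noncoding RNAs, 2 (11.8%) rose and 5 (29.4%) fell, with a median of -0.12. Tug1, a broadly expressed long RNA, fell by 0.24 on the log2 scale per doubling, while Firre (0.14), a nuclear RNA of the X chromosome, and Hotairm1 (0.32), a transcript of the HoxA cluster, rose. The host Rian is on both lists and fell by 0.42. In the 5 tumors under 10%, slopes were -0.26 for Tug1, -0.04 for Firre, -0.08 for Hotairm1 and -1.21 for Rian. With the replicate block the slope of Rian was 0.0022, and those of Tug1, Firre and Hotairm1 kept their signs.

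The shares of called genes among protein partners were read against the same background of 23.8% higher and 22.6% lower. Of 10 tested protein subunits of RNase P and RNase MRP, most of which both enzymes share, 1 (10%) rose and 3 (30%) fell with the share, with a median slope of 0.03. The subunits Pop4 and Rpp40 fell by 0.42 and 0.22 on the log2 scale, and Rpp25l rose by 0.19. Of 20 paraspeckle proteins, the partners of Neat1, 3 (15%) rose and 5 (25%) fell, with a median of -0.02. With so few genes, neither count sets its list apart from all genes tested. Zfr and Srsf10, both RNA-binding proteins, fell by 0.34 and 0.18, and Rbm14, which paraspeckles need to form, rose by 0.17.

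Of 30 genes for ribosomal RNA synthesis and snoRNP proteins, which make and modify the product of Rn45s, 10 (33.3%) rose and 3 (10.0%) fell, against 23.8% and 22.6% of all genes tested, with a median slope of 0.07. Ubtf, an activator of RNA polymerase I, rose by 0.21 and Bop1, which acts in assembly of the large subunit, rose by 0.28. Nop10, a core protein of H/ACA particles, fell by 0.50, while the H/ACA core protein Gar1 rose by 0.23. The other H/ACA core proteins on the list, Dkc1 (0.01) and Nhp2 (0.11), were not called. Of 14 factors of nonsense-mediated decay, the pathway that limits spliced host transcripts, 7 (50.0%) rose and 4 (28.6%) fell, with a median of 0.09. Casc3 (0.20), Rbm8a (0.29) and Upf3a (0.30) were among the 7. By light, 0 genes of any of these lists were called in edgeR, and 0 were called with the share when the replicate block was added or when the 5 tumors under 10% were fitted alone.

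**Figure D5:**
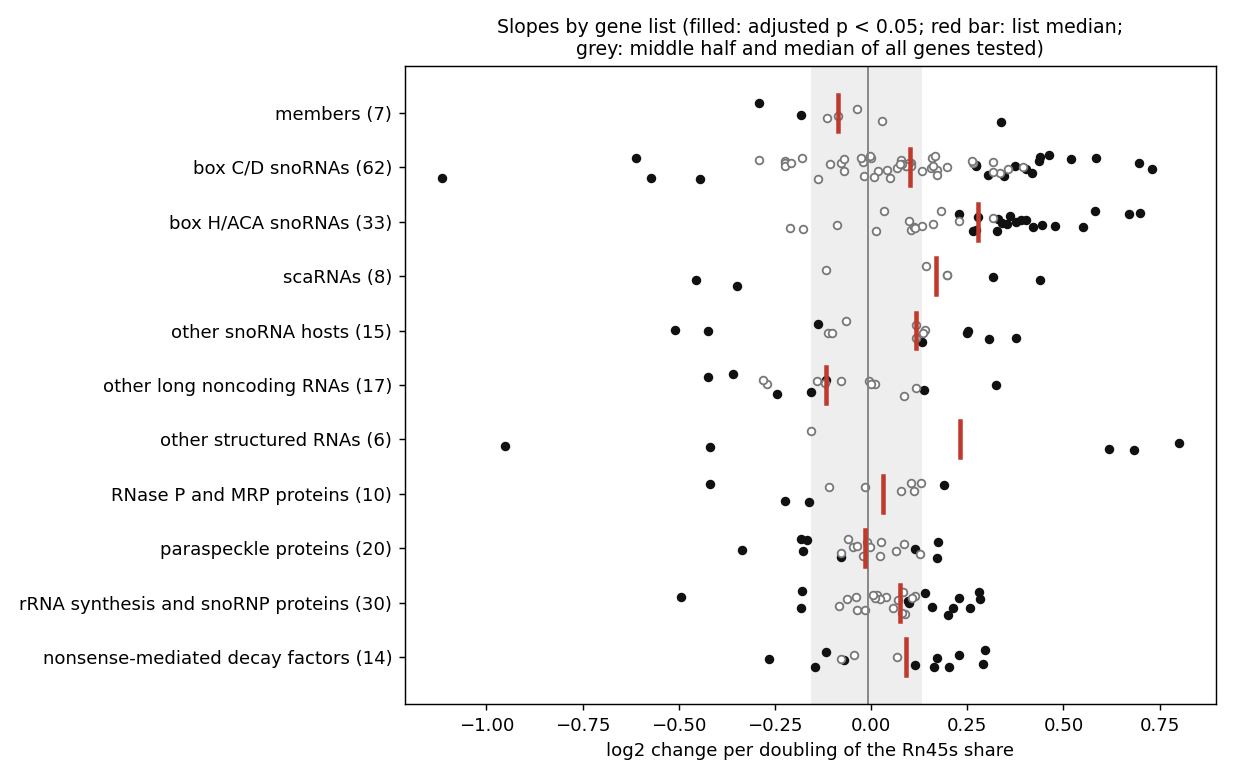
Log2 change per doubling of the Rn45s share for each tested gene (points, filled where the adjusted p was under 0.05), by list with its number of genes; red bars are list medians, and grey marks the median and the interquartile range of all 14467 genes tested. Medians run from -0.12 for other long noncoding RNAs to 0.28 for box H/ACA snoRNAs.

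Genes most like each member were taken as those with the smallest mean absolute distance between log2 CPM profiles centered over the 8 tumors, which is a description across 14468 genes. Malat1 lay closest to Runx1 (0.04), Vopp1 (0.06) and Ext1 (0.07), and Neat1 to Tmc4, Rnu73b and B130006D01Rik (each 0.14). Kcnq1ot1 lay closest to Ggt1 (0.05), Dcun1d2 (0.07) and Vps39 (0.08), and Gas5 to Ccdc163 (0.05), Ruvbl1 (0.09) and Zfp330 (0.09). Snhg1 lay close to Pole3 (0.08) and Gm13154 (0.08), Rmrp to Mak16 (0.06), Cycs (0.07) and Rps28 (0.07), and Rpph1 to Hook2 (0.05), Gpn2 (0.06) and Cdt1 (0.06). For Rn45s the nearest were farther, Nrtn at 0.41, Gm4013 at 0.43 and Rnu12 at 0.50. Between members, the distance was 0.17 for Malat1 and Neat1, 0.18 for Snhg1 and Rmrp, 0.42 for Gas5 and Snhg1, and 0.64 for Rmrp and Rpph1. Malat1 also lay 0.22 from Rmrp and 0.23 from Kcnq1ot1. Malat1 and Neat1 were thus close in profile, as were Snhg1 and Rmrp, and the host pair and the ribozyme pair were less so.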

How the data were processed

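Total RNA libraries of 8 tumors were analysed. The authors deposited raw read counts per gene symbol, along with a normalized signal per gene, equal to the count over a DESeq2 size factor. The submitters' processing notes name mm10, CASAVA, FastQC, Trim Galore, HISAT2, featureCounts and DESeq2, without roles. The paper names a TruSeq stranded kit and the labels a SMARTER stranded kit. The annotation and strand setting are not given in the sources used here, and how ribosomal RNA was removed could not be settled. Members and lists were chosen with earlier results of these data known.

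Counts were tested with edgeR 4.0.16 in R 4.3.3 (TMM, filterByExpr, glmQLFit and glmQLFTest, Benjamini-Hochberg adjustment over all genes tested, threshold 0.05), by light group, and by the log2 Rn45s share with light group as a covariate. Rn45s was left out of the second test. CPM used TMM factors, and log2 CPM a prior count of 2. Named genes were the members, up to 3 genes of each list with the smallest p past the threshold, and the 3 nearest profiles per member (1 of them is not reported here); others, including all snoRNA and host pairs, cell type markers, Rian, Rnu11 and Rn4.5s, were chosen after values were seen. DESeq2 1.42.0 and limma 3.58.1 (log2 of the normalized value plus 1) were alternatives. Procedures were tested on simulated data. Replicate numbers come from the labels, which state no pairing. Deviations from group means correlated across genes above a limit of 0.1 in every same-numbered pair (r = 0.597, 0.107, 0.407 and 0.623), so blocked fits are given. Tumors numbered 1, 3 and 4 also had like Rn45s shares in both groups, and whether the correlations reflect pairing was not tested. Labels name separate tumors. Positions and sequences are from GENCODE M21.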

Additional observations from a re-analysis of the deposited data

Results flagged for a closer look

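Dixon's test for an outlying tumor was applied to 24 groups of 4 values, where chance would flag about 1.2, and 2 were flagged. In control tumors, the log2 ratio of Malat1 to Neat1 was 3.54 in tumor 3, with the nearest at 2.87. Neat1 was 184 CPM there, and the next lowest control tumor had 257 CPM. In photoconverted tumors, Rpph1 was 9807 CPM in tumor 4, with the nearest at 6735 CPM, and that tumor had an Rn45s share of 21.9%, against at most 9.65% in the other 3.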

How the results depend on the processing

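By light, 0 genes were called in edgeR with the replicate block, another normalization, no filter, robust dispersion, Rn45s removed or the Rn45s share as a covariate, and 0 with limma, whereas DESeq2 called 19 and the 5 tumors with a share under 10% gave 42; no member was called under any of the 17 alternatives. Leaving out each tumor in turn gave 0 to 11 genes, the 11 without photoconverted tumor 4. Log2 fold changes that turned sign were those of Rpph1 (0.0086 with the share as a covariate, 0.30 in the 5 tumors) and Rn45s (0.85 in the 5 tumors), and, with a tumor left out, Kcnq1ot1 (-0.22 to 0.00089), Malat1 (-0.0020 to 0.23) and Rpph1 (-0.38 to 0.014). The light differences of the log2 ratios ran from -0.22 to 0.047 for Malat1 to Neat1 and from -0.40 to 0.071 for Gas5 to Snhg1 with each tumor left out, positive without control tumors 3 and 2.

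With the Rn45s share, 0 genes and 0 members were called with the replicate block and, in an alternative added after seeing the data, in the 5 tumors with a share under 10%. The block turned the slopes of Malat1 (0.049), Neat1 (0.13), Kcnq1ot1 (0.043) and Gas5 (-0.011), and the 5 tumors turned that of Gas5 (-0.32). Leaving out each tumor gave 1 to 4 members and 5044 to 7157 genes called, and slopes from -0.19 to 0.047 for Neat1, -0.068 to 0.058 for Kcnq1ot1 and -0.027 to 0.10 for Gas5. Why these values moved was not tested. Snord47 had as few as 6 counts in a tumor.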
